A study of Drosophila melanogaster and Drosophila simulans and Drosophila yakuba with 72 samples.

Results

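D. simulans males were set against D. simulans females at the earlier of the study's stages, 8 of the 72 samples of the series. The members were chosen by their labels alone: whole animals of the D. simulans stock with genotype 14021-0251.167, development state at least 18 BPF, 4 male and 4 female samples. The study measured microRNAs (miRNAs) on 2-colour arrays at 2 stages of 6 genotypes, and it asked how miRNA levels differ between genotypes, sexes and stages. BPF is read here as hours before puparium formation (PF), the onset of metamorphosis, because the labels give no unit. The comparison groups were D. simulans males and females at PF (4 and 4 samples), Oregon-R males and females and Zimbabwe-109 males and females at the earlier stage (4 and 4 samples each), the last 2 being strains of D. melanogaster. All animals were raised on corn meal medium with bromophenol blue under constant light, and no genotype carried a named transgene or mutation. Each sample was RNA of a pool of whole animals, and each species is represented by its stocks alone, so that D. simulans here means 1 stock.

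By the barcodes in the names of the array files, the males lay on 2 of the 7 slides, replicates 1 and 2 on slide 3 and replicates 3 and 4 on slide 1, and the females lay on slide 7, so sex and slide cannot be told apart. Each array carried the earlier and the PF sample of 1 replicate in opposite dyes, and each sex had 2 samples in Cy3 and 2 in Cy5. Between 135 and 258 probes were detected in the males, against 150 to 196 in the females, and the 258 belong to male replicate 3. Pairs of male replicates correlated at 0.960 to 0.987, pairs of female replicates at 0.980 to 0.995 and a male with a female sample at 0.919 to 0.964 across the tested probes, which are not independent. The array maker's 11 calibration controls that were detected in all 8 samples differed between males and females by -0.58 to 1.17 on the log2 scale (median 0.22), and 2 of the 11 had no overlap between the sexes. Controls detected in fewer samples went both ways. a-PUC2MM2d differed by -1.46, a2-PUC2MM-20B by -0.80 and a3-PUC2MM-20B by -0.70, each with no overlap of the sexes. They were detected in 3, 2 and 2 of 8 samples. a-PUC2PM, a2-PUC2PM-20B and a3-PUC2PM-20B, detected in all 8, differed by 0.22, 0.00 and 0.03. Ctr09-3M10, detected in 7 of 8, differed by 0.93 with overlapping sexes. The part of these control differences in the sex differences below was not tested. miR-1, the defining miRNA of muscle, was bright at 14.68, 15.06, 14.17 and 14.91 in males, against 14.24, 14.69, 14.30 and 14.23 in females, whereas miR-124, which marks neurons, was below background in 8 of 8 samples, and of the 40 probes for miRNAs of the male germ line and testis 2 were detected often enough to be tested.

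miRNAs are short RNAs that guide an Argonaute protein to messenger RNAs, and pairing through the seed, bases 2 to 8 counted from the 5′ end, largely sets which messages are repressed. In flies let-7, miR-100 and miR-125 come from 1 transcript that is switched on around metamorphosis, and several other miRNAs act in growth, in the fat body or in sense organs. Whole animals were used, so fewer cells of a type and less miRNA per cell cannot be told apart.

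The array held 3 spots for each of 1339 probes, and most of those are forms of a miRNA from other species. A probe that the array's name columns list for D. simulans is called here by the miRNA's name alone (miR-263b). Every other probe keeps its full name with the species prefix of the array, such as aae for Aedes aegypti, dpu for Daphnia pulex or dmo for D. mojavensis. The targets of probes for the miRNAs that carry the sex differences are given here 5′ to 3′, with the seed in capitals. The sequences are as the deposited array files hold them. They belong to listed probes, except that der-miR-306 and dme-miR-998 are listed for D. melanogaster only, and aae-miR-283 for neither species. Against the listed miR-283 target, aae-miR-283 lacks 1 base at the 5′ end and has 1 substitution. Its capitals are the same bases counted in its own sequence, and not the seed of the listed target. The chromosome arm is that of the D. melanogaster gene in RefSeq Release 6, since no source used here names the build behind the array. miR-276a is shown beside miR-276b, and miR-275 beside miR-306, because each pair shares its seed.
miR-263b (3L): cUUGGCACugggagaauucac
let-7 (2L): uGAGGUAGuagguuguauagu
miR-276b (3L): uAGGAACUuaauaccgugcucu
miR-276a (3L): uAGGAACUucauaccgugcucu
der-miR-306 (2L): uCAGGUACuuagugacucucaa
miR-275 (2L): uCAGGUACcugaaguagcgcgcg
miR-252 (3R): cUAAGUACuagugccgcaggag
miR-284 (3R): uGAAGUCAgcaacuugauuccagcaauug
miR-317 (3R): uGAACACAgcuggugguauccagu
dme-miR-998 (3R): uAGCACCAugagauucagcuc
aae-miR-283 (X): cAAUAUCAgcugguaauucugggc

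Several calls came from probes of other species, and a number of these are shown next with the bases that differ from the listed probe in capitals. dpu-miR-263b is shown beside them for comparison and was not called. Substitutions name the listed base, its position from the 5′ end of the listed target and the base of the variant. dpu-miR-252a differs by A10C, dpu-miR-263b by G12A and 1 more base at its 3′ end, dmo-miR-284 by U1C, G2A and U27C, dmo-miR-317 by U24A, and aae-miR-317 by C21U with 3 bases fewer at the 3′ end. aae-miR-263b has 2 more bases at the 3′ end, aae-miR-275 has 3 fewer and aae-miR-998 has 2 fewer, with 0 substitutions in each.
dpu-miR-252a (3R): cuaaguacuCgugccgcaggag
aae-miR-263b (3L): cuuggcacugggagaauucacAG
dpu-miR-263b (3L): cuuggcacuggAagaauucacA
aae-miR-275 (2L): ucagguaccugaaguagcgc
dmo-miR-284 (3R): CAaagucagcaacuugauuccagcaaCug
dmo-miR-317 (3R): ugaacacagcuggugguauccagA
aae-miR-317 (3R): ugaacacagcuggugguaucU
aae-miR-998 (3R): uagcaccaugagauucagc

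Of 272 tested probes, 32 differed between the sexes at an adjusted p under 0.05, which is 11.8% of those tested. They were 13 probes higher in males (4.78%) and 19 lower in males (6.99%). In males the probes for miR-312 and miR-311, for ame-miR-928 and for 5 targets with runs of G were higher, and the probes for miR-263b, dpu-miR-252a, let-7, miR-276b and variant forms of miR-284, miR-275, miR-317 and miR-307 were lower. At an unadjusted p under 0.05 there were 69 probes. All differences below are males minus females in normalized log2 intensity ± SE from limma's fit over all 72 samples, and every adjusted p is limma's with the Benjamini-Hochberg method over the 272 probes. The 4 male and the 4 female values did not overlap in 68 probes, 25% of those tested, and in 29 of the 32 called.

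The split of 13 higher and 19 lower followed the scaling. It was 17 and 3 when each channel was centred on the 60 probes detected in all 72 samples, 6 and 14 in the authors' table of processed values, 8 and 28 in that table once centred, and 40 and 20 of 1339 probes with no filter on dim probes. With only the males of slide 3 in the fit it was 12 and 14, with only those of slide 1 it was 13 and 16, and with the slide as a random block in place of the array 10 and 12. The median of all tested probes was -0.09, and over 8 other scalings it lay between -0.35 and 0.48. Of the 27 named probes 6 kept their call in every alternative that was run: miR-312, dan-miR-312, der-miR-312, ame-miR-928, bmo-miR-2783 and dpu-miR-252a. Sizes followed the background correction too: of the 27 named probes, 16 had a difference more than 1.5 times as wide with plain subtraction and 17 in the authors' table, and 0 one that much narrower. The signs given below for the called probes were the same under all 8 scalings, except where a flip is named.

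**Figure D1:**
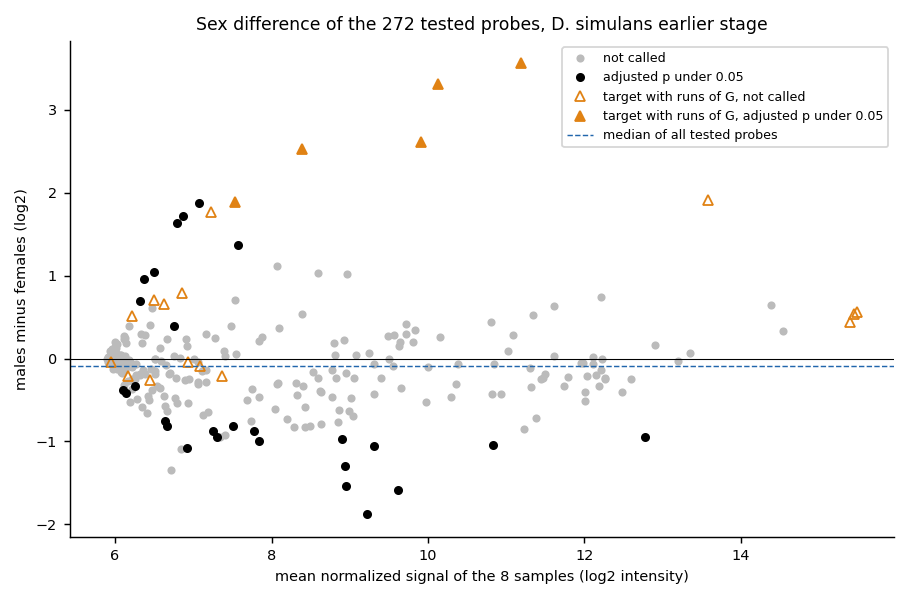
Each point is a tested probe, with the mean normalized signal of the 8 samples (log2 intensity) on the x axis and the difference of males minus females (log2) on the y axis. Filled symbols had an adjusted p under 0.05 (13 above 0, 19 below), triangles are targets with runs of G, and the dashed line is the median of all tested probes, -0.09.

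Of the 13 probes higher in males, 6 are named after members of the miR-310 family. Among them is dme-mir-313-5p, by its name a probe for the 5′ arm of its hairpin. The family is a cluster of young fly miRNAs (miR-310 to miR-313) that shares its seed with miR-92 and is known from ovaries and early embryos. The tissue behind its signal in these whole animals was not tested. miR-312 read 8.06, 7.80, 7.41 and 7.68 in males, against 5.99, 6.11, 6.04 and 5.91 in females. All males lay above all females, the probe was detected in 4 of 4 males and 0 of 4 females, and the difference was 1.73 ± 0.18 (adjusted p = 1.92e-11), or at least 2.1-fold. dan-miR-312, whose target matches the listed one but is 3 bases shorter at the 3′ end, read 8.07, 8.12, 7.88 and 8.00 in males, against 6.29, 6.24, 5.98 and 6.04 in females, a difference of 1.88 ± 0.17 (adjusted p = 9.18e-13) and at least 2.56-fold. The probes with 1 and 2 substitutions against the listed target, der-miR-312 (A21G) and dme-miR-312 (G20U, A21G), differed by 1.05 ± 0.14 and 0.96 ± 0.18, and each was detected in 3 of 4 males and 0 of 4 females. miR-311 read 6.65, 6.82, 6.60 and 6.60 in males, against 6.06, 6.02, 5.85 and 5.94 in females, close to background in both sexes, and differed by 0.70 ± 0.18 (adjusted p = 0.00433) with 2 of 4 males and 0 of 4 females detected. Its call was lost with median centring (adjusted p = 0.254), with cyclic loess (adjusted p = 0.250), in the authors' table (adjusted p = 0.0582) and with the slide as a random block (adjusted p = 0.170), and that of dme-miR-312 with cyclic loess (adjusted p = 0.0660). The size of these differences moved with the background correction: miR-312 differed by 6.04 with plain subtraction and by 5.49 in the authors' table, and kept its sign and its call in both.

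Of the list for ovary and maternal miRNAs, which holds the miR-310 family, 6 of 10 tested probes were higher in males, against 4.78% of all tested probes, and 0 lower, and its median was 0.83 against -0.09 over all tested probes (0.58 to 5.04 over the scalings). The 6 include dme-mir-313-5p, a target with runs of G. The others are the probe for miR-311, close to background, and the forms of miR-312, which are probes of the same miRNA and no separate members. miR-184, the abundant maternal member of the list, read 13.39 ± 0.54 in males and 13.32 ± 0.12 in females (SD, n = 4 each), a difference of 0.07 ± 0.25 (adjusted p = 0.941). The list has 45 probes on the array, and 10 of them passed the filter. In D. simulans, miR-312 and der-miR-312 met that filter in males (4 and 3 of 4 detected) but not in females (0 of 4). The share among tested probes thus depends on a filter that males alone could meet. The list was chosen with earlier results of these data known, and its count carries no test of its own.

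With the background correction used here, the widest differences among the probes higher in males were those of 5 probes whose targets have runs of G, meaning 4 or more consecutive G, or 2 or more stretches of 3. They are shown by the form of miR-92a* from Aedes aegypti, with the run in capitals.
aae-miR-92a* (3R): cgguacggacaGGGGcaacauu

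aae-miR-92a* read 12.68, 12.76, 12.31 and 14.13 in males, against 7.98, 10.67, 8.95 and 10.03 in females. The males lay above the females, but the female values spread over 2.69 log2 units, and the difference was 3.56 ± 0.96 (adjusted p = 0.00634). The miRNA from the other arm of that hairpin did not pass the test: miR-92a read 8.69 ± 0.27 in males and 9.39 ± 0.25 in females (SD, n = 4 each), a difference of -0.70 ± 0.37 (adjusted p = 0.236). The custom probe dme-wu-mir-2318-5p read 11.16, 12.05, 10.78 and 13.13 in males, against 7.78, 10.23, 7.33 and 8.53 in females and differed by 3.31 ± 0.65. dme-mir-313-5p differed by 2.61 ± 0.47, dsi-wu-mir-2208-3p by 2.53 ± 0.56 and bmo-miR-2783 by 1.89 ± 0.37, with no overlap of the sexes in any of the 3. In all, 5 of the 20 tested probes with runs of G were higher in males, against 4.78% of all tested probes, and 0 lower, with a median of 0.61. Leaving these probes out of the counts gave 8 higher and 19 lower. With plain subtraction ame-miR-928 (6.66), miR-312 (6.04) and dan-miR-312 (5.33) differed by more than aae-miR-92a* (3.90). Of the 5 calls with runs of G, 4 were lost in the authors' table. That of aae-miR-92a* was lost also with the slide as a random block (adjusted p = 0.0684), while that of bmo-miR-2783 was kept in all 25 alternatives.

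The other probes higher in males were ame-miR-928, dsi-wu-mir-2359-5p and dsi-mir-314-5p. ame-miR-928, a honey bee form, read 7.55, 7.98, 7.21 and 7.72 in males, against 5.96, 6.00, 5.91 and 6.03 in females, with 4 of 4 males and 0 of 4 females detected, a difference of 1.64 ± 0.29 (adjusted p = 3.81e-05) and at least 1.93-fold. It differed by 6.66 with plain subtraction and by 8.42 in the authors' table. dsi-wu-mir-2359-5p, a custom probe for a candidate D. simulans miRNA, read 8.32, 7.59, 8.93 and 8.21 in males, against 7.14, 6.74, 7.12 and 6.55 in females and differed by 1.37 ± 0.25 (adjusted p = 4.73e-05). Its call was lost in the authors' table (2.31, adjusted p = 0.489) and in that table once centred (2.43, adjusted p = 0.303). The probe for the other arm, dsi-wu-mir-2359-3p, had 1.02 ± 0.42 (adjusted p = 0.0962) and did not pass. dsi-mir-314-5p, a custom probe chosen after its values were seen, read 6.84, 6.68, 7.43 and 6.84 in males, against 6.63, 6.46, 6.78 and 6.33 in females. The sexes overlapped, and the difference was 0.39 ± 0.10 (adjusted p = 0.00364).

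**Figure D2:**
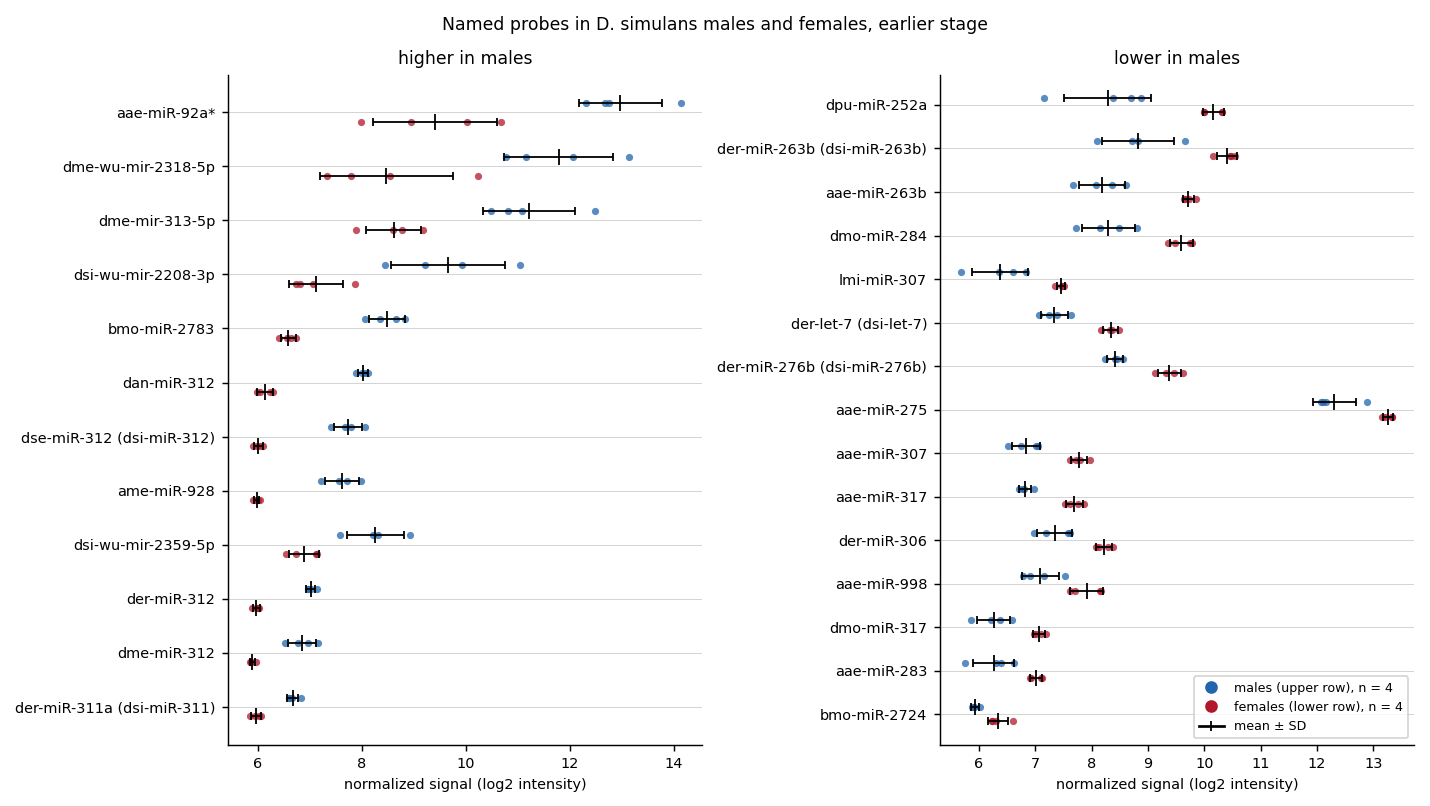
Normalized signal (log2 intensity, x axis) of the named probes in each D. simulans sample of the earlier stage, with males in the upper and females in the lower row of each probe and black bars for the mean ± SD (n = 4). The left panel holds the 12 named probes higher in males and the right panel the 15 lower in males; the 4 samples of a sex do not overlap with those of the other in any of them, and under 1 of the 8 other scalings the mean difference of aae-miR-283 and of bmo-miR-2724 lay above 0.

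miR-263b was among the 4 probes listed for D. simulans that were lower in males. Together with miR-263a it is known to protect the cells of sensory bristles from dying. It read 9.66, 8.83, 8.10 and 8.71 in males, against 10.46, 10.15, 10.47 and 10.55 in females, a difference of -1.58 ± 0.38, or 3-fold lower in males (adjusted p = 0.00201). aae-miR-263b, which extends the same target by 2 bases, read 8.62, 8.36, 7.67 and 8.08 in males, against 9.73, 9.66, 9.85 and 9.64 in females and differed by -1.54 ± 0.36 (adjusted p = 0.00192). Both probes put every male below every female. The call of miR-263b was lost with the slide as a random block (adjusted p = 0.0798), with the males of slide 3 alone (-1.19, adjusted p = 0.0688) and in the authors' table (adjusted p = 0.0509). That of aae-miR-263b was lost with the slide as a random block (adjusted p = 0.0733) and in the authors' table (adjusted p = 0.0505). The forms with G12A, dpu-miR-263b, ame-miR-263b and nvi-miR-263b, differed by -0.21 ± 0.24, -0.00 ± 0.23 and -0.06 ± 0.21, and none of the 3 passed the test. miR-263a, whose target shares a run of 19 bases with ame-miR-263b and of 9 with miR-263b, differed by -0.25 ± 0.25 (adjusted p = 0.618). Of the list for nervous system and sense organs, these 2 miR-263b probes were the ones lower among 29 tested, near the 6.99% of all tested probes, with 0 higher and a median of -0.10 (-0.44 to 0.32 over the scalings).

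dpu-miR-252a kept its call in all 25 alternatives. It read 8.88, 8.70, 7.16 and 8.39 in males, against 9.99, 9.99, 10.32 and 10.32 in females, a difference of -1.88 ± 0.34, or 3.67-fold lower in males (adjusted p = 4.73e-05). The listed probe for miR-252, which differs from it at position 10 alone, read 11.78, 11.50, 10.94 and 11.21 in males, against 11.64, 11.36, 11.71 and 11.67 in females, and its males and females overlapped. Its difference was -0.24 ± 0.27 with a 95% interval of -0.77 to 0.30 (adjusted p = 0.658). aae-miR-252 and ame-miR-252 differed by -0.43 ± 0.24 and -0.43 ± 0.25 and did not pass either. Which RNA the mismatched probe reads was not tested.

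let-7, which times developmental transitions in many animals, read 7.63, 7.25, 7.07 and 7.39 in males, against 8.33, 8.17, 8.36 and 8.48 in females. Every male lay below every female, and the difference was -1.00 ± 0.34, or 2-fold lower in males (adjusted p = 0.0374). The call was lost without male replicate 2, 3 or 4 and without female replicate 3 or 4, and in 11 of 25 alternatives in all. Its partners on the same transcript were below background in 8 of 8 samples, miR-100 at 6.58 ± 0.08 in males and 6.61 ± 0.25 in females (SD, n = 4 each) and miR-125 at 6.43 ± 0.12 in males and 6.58 ± 0.18 in females (SD, n = 4 each). Of the list for ecdysone and heterochronic miRNAs, 3 of 29 tested probes were lower in males, against 6.99% of all tested probes, and 0 higher, with a median of -0.23 (-0.66 to 0.36 over the scalings). The other two were lmi-miR-8, a locust form of a growth and fat body regulator (-1.04 ± 0.33, adjusted p = 0.0264), and cqu-miR-252*, which was below background in 8 of 8 samples. miR-8 itself read 12.47 ± 0.62 in males and 12.72 ± 0.20 in females (SD, n = 4 each) and differed by -0.25 ± 0.25 (adjusted p = 0.627).

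Of the list for gut, fat body and metabolism, 4 of 36 tested probes were lower in males, against 6.99% of all tested probes, and 0 higher, with a median of -0.05 (-0.27 to 0.49 over the scalings). miR-276b read 8.56, 8.23, 8.45 and 8.41 in males, against 9.32, 9.46, 9.61 and 9.13 in females, a difference of -0.97 ± 0.30, or 1.96-fold lower in males (adjusted p = 0.0182). miR-276a, its paralog that is known from olfactory memory and differs from it by 1 base (A10C), read 11.32 ± 0.35 in males and 11.56 ± 0.15 in females (SD, n = 4 each) and differed by -0.24 ± 0.26 (adjusted p = 0.627). The call of miR-276b was lost in 11 of 25 alternatives, among them those without female replicate 2 and without female replicate 4. aae-miR-275 was the brightest probe among those lower in males. It read 12.11, 12.17, 12.07 and 12.89 in males, against 13.20, 13.32, 13.15 and 13.34 in females, with replicate 4 standing apart from the other males, and differed by -0.95 ± 0.25 (adjusted p = 0.00610). Its call was lost with channels centred on the probes detected in all samples (adjusted p = 0.157) and in the authors' table once centred (adjusted p = 0.0921). miR-275, known in mosquitoes for its part in blood digestion, has a listed probe that is 3 bases longer, and that probe read 13.32, 12.80, 12.54 and 13.29 in males, against 13.01, 12.62, 12.88 and 12.77 in females, with overlapping sexes and a difference of 0.17 ± 0.23 (95% interval -0.30 to 0.63, adjusted p = 0.716). The other 2 members were lmi-miR-307 (-1.07 ± 0.27) and aae-miR-307 (-0.94 ± 0.29), with 1 and 3 of 4 males and 4 of 4 females detected, while the shorter listed probe for miR-307 was below background in 8 of 8 samples. With channels centred on the probes detected in all samples, lmi-miR-307 differed by -0.27 and aae-miR-307 by -0.18 and both calls were lost. That of aae-miR-307 was lost also without male replicate 1, and in 7 of 25 alternatives in all. That of lmi-miR-307 was lost also with cyclic loess (adjusted p = 0.0720).

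der-miR-306, listed for D. melanogaster and from a cluster with miR-79 and members of the miR-9 family, shares its seed with miR-275. It read 7.19, 7.59, 6.98 and 7.62 in males, against 8.12, 8.07, 8.38 and 8.29 in females, a difference of -0.87 ± 0.26 (adjusted p = 0.0177). The call was lost without male replicate 3, without female replicate 4 and in 7 of 25 alternatives in all, among them the slide as a random block and the authors' table. dmo-miR-284, a form of a miRNA known from glutamate receptors at the larval neuromuscular junction, read 8.49, 8.15, 7.72 and 8.81 in males, against 9.79, 9.36, 9.74 and 9.47 in females and differed by -1.30 ± 0.36 (adjusted p = 0.00751), a call lost with channels centred on the probes detected in all samples (adjusted p = 0.0650). miR-284 itself differed by -0.63 ± 0.35 (adjusted p = 0.257), in the same direction but without passing.

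miR-317 comes from a cluster with miR-277 and miR-34. Its listed probe read 7.83 ± 0.35 in males and 8.56 ± 0.24 in females (SD, n = 4 each) and differed by -0.73 ± 0.32 (adjusted p = 0.115). Its variants aae-miR-317 (-0.88 ± 0.21, adjusted p = 0.00201) and dmo-miR-317 (-0.81 ± 0.22, adjusted p = 0.00637) passed, the second with 0 of 4 males and 4 of 4 females detected and at least 1.37-fold lower in males. Of the other forms, ame-miR-317 (-0.30 ± 0.28), bmo-miR-317 (-0.46 ± 0.20) and dpe-miR-317 (-0.62 ± 0.30) did not pass. With channels centred on the probes detected in all samples, aae-miR-317 differed by -0.15 and dmo-miR-317 by -0.05, and both calls were lost. In all, the call of aae-miR-317 was lost in 2 and that of dmo-miR-317 in 4 of 25 alternatives. aae-miR-998 differed by -0.82 ± 0.25 (adjusted p = 0.0177), against -0.40 ± 0.28 (adjusted p = 0.410) for the dme-miR-998 probe. The call of aae-miR-998 was lost without male replicate 3, without female replicate 4 and in 10 of 25 alternatives in all. Among those were plain subtraction, the authors' table and the slide as a random block. cqu-miR-988, chosen after its values were seen, differed by -1.05 ± 0.35 (adjusted p = 0.0359), with overlapping sexes.

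Of 12 tested probes for miRNAs on the X chromosome, 2 were lower in males, against 6.99% of all tested probes, and 0 higher, with a median of -0.10 (-0.28 to 0.49 over the scalings). aae-miR-283, of the cluster with miR-12 and miR-304, had -0.75 ± 0.21 (adjusted p = 0.00832) with 1 of 4 males and 4 of 4 females detected. Its difference lay above 0 when channels were centred on the probes detected in all samples. Its call was lost without male replicate 1, and in 6 of 25 alternatives in all. cqu-miR-283 had -0.59 ± 0.21 (adjusted p = 0.0581). The other call, dsi-miR-981 at -0.33 ± 0.11, was 1 of 3 calls on probes below background in 8 of 8 samples; cqu-miR-252* (-0.38 ± 0.08) and bmo-miR-2724 (-0.41 ± 0.13) were the others. The signs of these 3 flipped under at least 1 scaling, no fold is given for them, and the empty spots themselves read 5.84 to 5.95 in males and 5.95 to 6.07 in females after normalization.

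**Figure D3:**
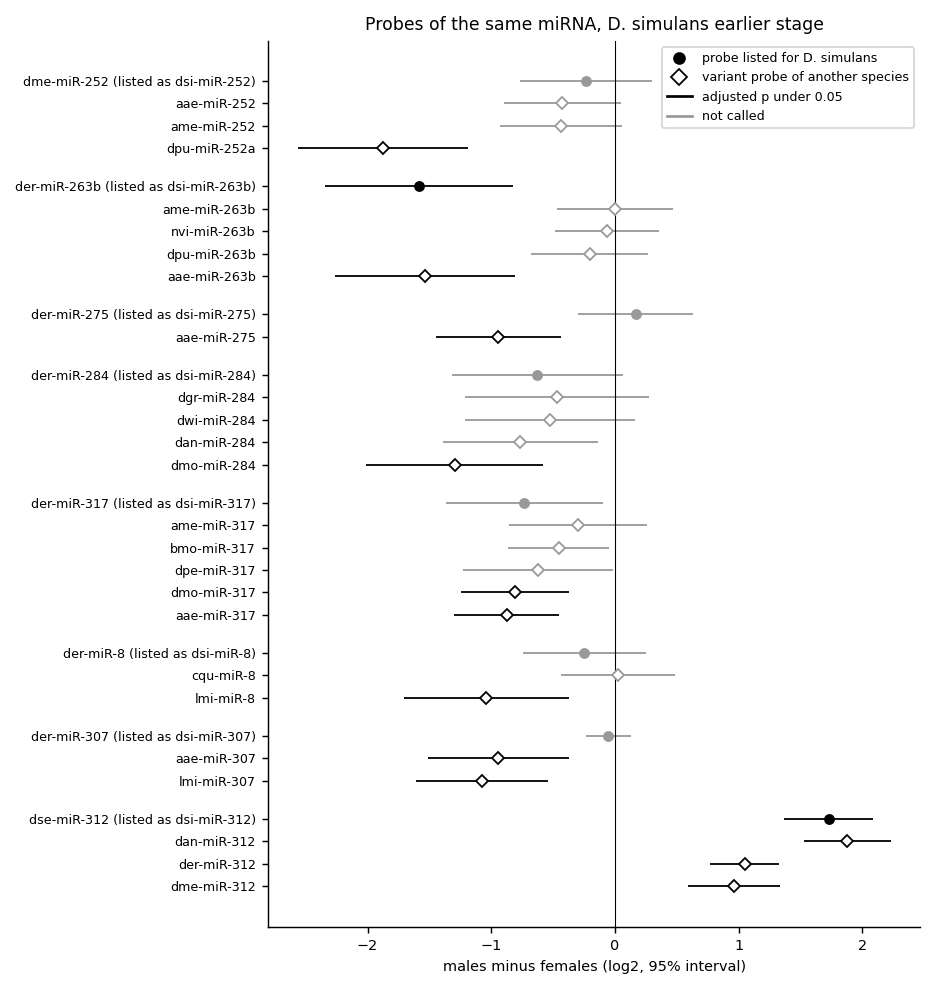
Difference of males minus females (log2, x axis) with its 95% interval for probes of the same miRNA in D. simulans at the earlier stage, with filled circles for the probe listed for D. simulans, open diamonds for forms of other species, and black where the adjusted p was under 0.05. The listed probe passed for miR-263b and miR-312, while for miR-252, miR-275, miR-284, miR-317, miR-8 and miR-307 a form of another species passed and the listed probe did not.

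Seen by kind of probe, 2 of the 66 tested probes listed for D. simulans were higher in males and 4 lower, 9.09% of them. Of the 143 standard probes listed for neither D. simulans nor D. melanogaster, 5 were higher and 14 lower, 13.3% of them. Of the 124 probes detected in all 8 samples, 4 were higher in males and 10 lower, 11.3% of them, close to the 11.8% over all tested probes. Among the other lists, 0 of 22 probes of the miR-2 and K-box family, which is known for targeting pro-apoptotic genes, passed in either direction, nor did any of 7 Hox cluster or 6 mirtron probes or of the 2 tested male germ line probes. miR-13b and miR-2b, bright members of the first, differed by 0.09 ± 0.33 and -0.06 ± 0.25. miR-10 of the Hox cluster read 11.69, 11.19, 10.18 and 10.18 in males, against 11.69, 11.56, 11.70 and 11.67 in females, a difference of -0.85 ± 0.31 (adjusted p = 0.0604). In the muscle list 1 of 13 was higher, aae-miR-92a*, near the 4.78% of all tested probes, and 0 lower, with a median of -0.44 (-0.59 to 0.05 over the scalings), and miR-1 differed by 0.34 ± 0.35. In the growth list 1 of 17 was lower, lmi-miR-8, near the 6.99% of all tested probes, and 0 higher.

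At PF, 37 of 272 probes differed between D. simulans males and females (13.6%), 18 higher and 19 lower. These are the other channels of the same arrays, so they are no independent samples of slide or array. Of the 13 probes higher in males at the earlier stage 6 were also among the 18 higher at PF, and of the 19 lower ones 9 were also among the 19 lower at PF. miR-312 differed by 1.75 ± 0.18 at PF, dan-miR-312 by 1.98 ± 0.17, dsi-wu-mir-2359-5p by 1.51 ± 0.25, miR-263b by -1.40 ± 0.38 and dpu-miR-252a by -1.75 ± 0.34, all near their values at the earlier stage. let-7 differed there by -0.74 ± 0.34 (adjusted p = 0.156). Other named probes were not near their earlier values. At PF miR-276b differed by -0.05 ± 0.30 (adjusted p = 0.996) and dmo-miR-284 by -0.32 ± 0.36 (adjusted p = 0.749). Their changes between the stages, -0.92 ± 0.30 and -0.98 ± 0.36, did not pass (adjusted p = 0.059 and 0.119).

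The change of the sex difference between the stages was tested directly, and 14 of 272 probes passed (5.15%), 9 with a more positive difference at the earlier stage and 5 with a more negative one. All 5 called probes with runs of G were among the 9. At PF each of the 5 was detected in 1 or 2 of 4 males and in 0 of 4 females. aae-miR-92a* differed by 0.32 ± 0.96 at PF, where 2 of 4 males and 0 of 4 females were detected, and the difference between stages was 3.25 ± 0.96 (adjusted p = 0.0291). ame-miR-928 was below background in 8 of 8 PF samples, and its sex difference was 0.14 ± 0.29 there (between stages 1.50 ± 0.29, adjusted p = 0.000204). der-miR-306 differed by 0.10 ± 0.26 at PF and by -0.97 ± 0.27 between stages (adjusted p = 0.0138). The rest of the 14 did not differ between the sexes at the earlier stage by the test. They include miR-125, at -0.15 ± 0.34 at the earlier stage, where it was below background, against -2.20 ± 0.34 at PF, and dsi-wu-mir-2338-5p, at 0.41 ± 0.43 at the earlier stage against 4.50 ± 0.43 at PF, both chosen after their values were seen. With limma on the authors' table, 0 probes passed this test (27 at an unadjusted p under 0.05), and 2 passed once that table was centred.

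Sex differences at the earlier stage were called in 76 of 272 probes in Oregon-R (27.9%) and in 61 in Zimbabwe-109 (22.4%). The females of the 3 strains share slides 6 and 7, on which no male sample lay. Of the 13 probes higher in D. simulans males, 4 were also among the 36 higher in Oregon-R males and 7 among the 25 higher in Zimbabwe-109 males. Of the 19 lower ones, 8 were among the 40 lower in Oregon-R males and 5 among the 36 lower in Zimbabwe-109 males. miR-263b was lower in males of all 3: by -1.58 ± 0.38 in D. simulans, -2.16 ± 0.38 in Oregon-R (adjusted p = 2.20e-05) and -1.15 ± 0.38 in Zimbabwe-109 (adjusted p = 0.0190). dmo-miR-284 likewise differed by -1.00 ± 0.36 and -1.42 ± 0.36 in those strains, and dmo-miR-317 by -0.63 ± 0.22 and -0.67 ± 0.22.

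The sex difference in D. simulans was then tested against the mean of that in Oregon-R and Zimbabwe-109, and 32 of 272 probes passed (11.8%), 15 with a more positive and 17 with a more negative difference in D. simulans; 13 of the 32 were also called between the sexes in D. simulans. For miR-312, the sex difference of 1.73 ± 0.18 stood against 0.40 ± 0.18 in Oregon-R and 0.17 ± 0.18 in Zimbabwe-109, and the gap was 1.44 ± 0.22 (adjusted p = 2.15e-06). The probe was detected in 2 of 4 males and 0 of 4 females of Oregon-R, and in 0 of 4 of each sex of Zimbabwe-109. dan-miR-312 had a gap of 1.01 ± 0.21 and der-miR-312 of 1.17 ± 0.17, whereas dme-miR-312, the probe for the D. melanogaster sequence, had 0.48 ± 0.23 (adjusted p = 0.174) and did not pass. der-miR-312 was detected in 0 of 4 males and 2 of 4 females of Oregon-R, and in 1 of 4 of each sex of Zimbabwe-109. How far signal near background, or the match of probe and target in each species, enters these gaps was not tested.

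The gap for let-7 had the opposite sign: its -1.00 ± 0.34 in D. simulans stood against 0.54 ± 0.34 in Oregon-R and 0.50 ± 0.34 in Zimbabwe-109, and the gap was -1.52 ± 0.41 (adjusted p = 0.0132). der-miR-306 (-1.02 ± 0.32), aae-miR-317 (-1.00 ± 0.26), aae-miR-307 (-1.23 ± 0.35) and lmi-miR-307 (-0.98 ± 0.33) also had more negative differences in D. simulans. let-7 and each of these probes were detected in 4 of 4 Oregon-R and 3 of 4 Zimbabwe-109 females. In males, lmi-miR-307 was detected in 0 of 4 samples of either strain. let-7 and aae-miR-307 were detected in 3 of 4 Oregon-R and 1 of 4 Zimbabwe-109 males. For aae-miR-317 these counts were 4 of 4 and 2 of 4, and for der-miR-306 3 of 4 in both. Among the probes chosen after their values were seen, 7 probes for miR-92a, miR-92b and miR-92 passed in this direction, as 17 of all 272 tested did. They are forms of the same few miRNAs and no separate members. None of them was called between the sexes in D. simulans. Their sex differences were 1.10 to 1.85 in Oregon-R and -0.07 to 0.47 in Zimbabwe-109. miR-92a had -0.70 ± 0.37 in D. simulans, against 1.39 ± 0.37 in Oregon-R and 0.33 ± 0.37 in Zimbabwe-109, a gap of -1.56 ± 0.45 (adjusted p = 0.0220). The number of probes that passed rested on single samples and on the scaling: it was 20 without male replicate 2, 20 without female replicate 3, 18 without female replicate 4, and 2 with channels centred on the probes detected in all samples.

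**Figure D4:**
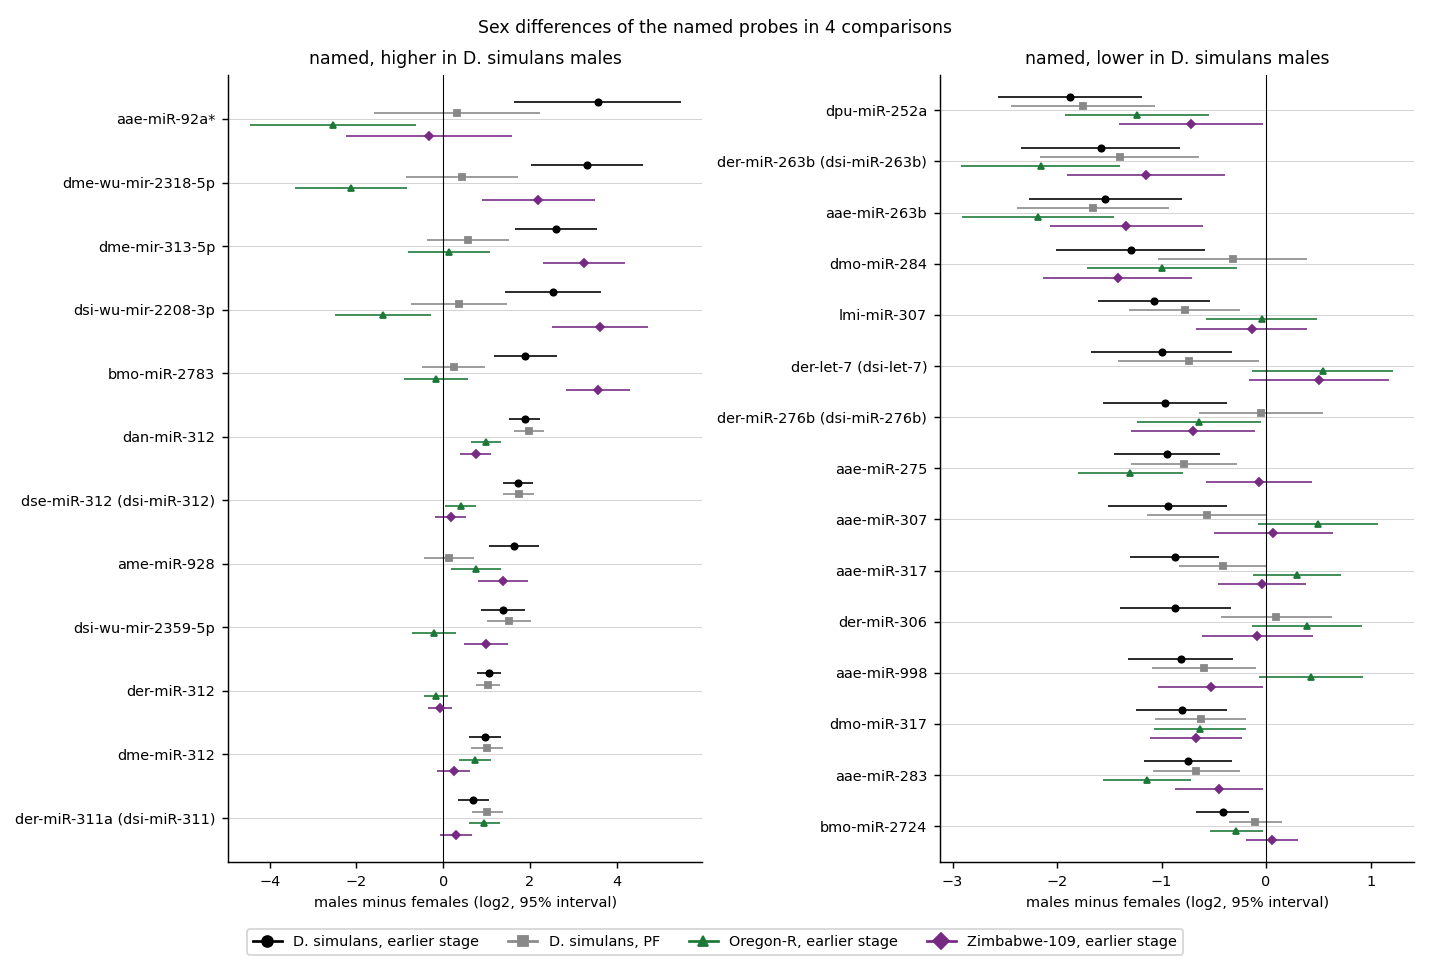
Difference of males minus females (log2, x axis) with its 95% interval for each named probe in 4 comparisons, from top to bottom D. simulans at the earlier stage, D. simulans at PF, Oregon-R at the earlier stage and Zimbabwe-109 at the earlier stage (n = 4 males and 4 females each). miR-312 lies far to the right in D. simulans at both stages, and miR-263b lies left of 0 in all 4; under another scaling aae-miR-283 and bmo-miR-2724 lay right of 0 at the earlier stage.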

How the data were processed

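Per the file headers, each deposited scanner file holds an intensity per spot, the median pixel density of both channels on a linear scale, without local background. Per the labels' protocols, LC Sciences labelled the RNA; no source used here names the scanner or its software. The authors also deposited a table of processed intensities, linear and above 0, whose scaling and centring are unknown; it served only as an alternative. Depth has no meaning for arrays, and the number of samples limits the precision.

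From the 5022 spots of each array, intensities were corrected with normexp (offset 50) on the median of the 689 empty spots, normalized within arrays by loess fitted to the miRNA probes, then between arrays by Aquantile, and summarised on the log2 scale as the median over a probe's 3 spots. A probe was detected when its median intensity lay over 3 SD above the empty spots. Tested were 272 of 1339 probes, each detected in 3 or more samples of at least 1 group, and the 8 probes for 2S rRNA were left out. limma 3.58.1 (R 4.3.3, statmod 1.5.0) fitted 1 model to the 18 groups, with a term for dye and the array as a random block (correlation 0.49). Replicates are pools of animals that the series' design text calls biological, and the p-values reflect no more than their spread. An "at least" fold sets the bright sex's mean against, per dim sample, either its lowest detected signal or the dim probe's value, whichever is higher.

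Named are up to 15 probes per direction with the largest difference among those with adjusted p under 0.05 and no overlap of the sexes, 1 per target sequence, and list members. Other probes of a named miRNA, or of the other arm of its hairpin, are given beside it without a mark. The remaining probes outside that rule are marked as chosen after their values were seen. The members, the 12 lists, the tests and the alternatives were chosen with earlier results of these data known. Alternatives covered background, offset, scaling, the authors' table, spot mean, dim-probe filter, samples in the fit, slide, dye, replicate number, and single samples or slides left out.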

Additional observations from a re-analysis of the deposited data

Results flagged for a closer look

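Tests of the difference itself set 18 values apart for the named probes, all as log2 differences ± SE. Against the mean of Oregon-R and Zimbabwe-109, the sex difference in D. simulans at the earlier stage was more positive by 5.00 ± 1.17 for aae-miR-92a* and by 3.28 ± 0.79 for dme-wu-mir-2318-5p. It was also more positive for miR-312 (1.44 ± 0.22), der-miR-312 (1.17 ± 0.17), dan-miR-312 (1.01 ± 0.21) and dsi-wu-mir-2359-5p (0.98 ± 0.31). The probes for miR-312 and der-miR-312 were near background in Oregon-R and Zimbabwe-109. It was more negative for let-7 (-1.52 ± 0.41), aae-miR-307 (-1.23 ± 0.35), der-miR-306 (-1.02 ± 0.32), aae-miR-317 (-1.00 ± 0.26) and lmi-miR-307 (-0.98 ± 0.33). Of these, lmi-miR-307 was detected in 0 of 4 males of either strain. Both aae-miR-92a* and dme-wu-mir-2318-5p have targets with runs of G, and in Oregon-R both were lower in males, by -2.55 ± 0.96 and -2.13 ± 0.65.

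Between the earlier stage and PF, the sex difference was more positive at the earlier stage by 3.25 ± 0.96 for aae-miR-92a* and by 2.88 ± 0.65 for dme-wu-mir-2318-5p. The same held for dsi-wu-mir-2208-3p (2.17 ± 0.56), dme-mir-313-5p (2.03 ± 0.48), bmo-miR-2783 (1.65 ± 0.37) and ame-miR-928 (1.50 ± 0.29), and it was more negative for der-miR-306 (-0.97 ± 0.27). Of these 7 probes, 5 have targets with runs of G, and at PF those were detected in 1 or 2 of 4 males and 0 of 4 females.

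For aae-miR-275, male replicate 4 stood apart: its gap to the nearest male was 0.882 of the range of the 4 males, above Dixon's 95% critical value for 4 samples. Chance alone puts about 1 in 20 groups past that value. The call was kept without that sample.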

How the results depend on the processing

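Of 673 values of the 27 named probes under the 25 alternatives, 581 kept their direction and their side of the threshold, 90 kept the direction only and 2 changed sign. Both changes of sign came with channels centred on the probes detected in all samples: aae-miR-283 at 0.0096 and bmo-miR-2724 at 0.28. Of the named probes 7 lost their call when 1 sample was left out: let-7, miR-276b, der-miR-306, aae-miR-998, aae-miR-307, aae-miR-283 and, without female replicate 3, bmo-miR-2724. The count higher in males was 13, against 6 in the authors' table, 8 in that table once centred, 40 with no filter, 27 with only the 8 samples in the fit, and 8 without probes with runs of G. The count lower in males was 19, against 32 with quantile normalization, 3 with channels centred on probes detected in all samples, 44 with only the 8 samples and 12 with the slide as a random block. Leaving out 1 sample gave 12 to 14 higher and 13 to 20 lower. The count for the change between stages was 14, against 8 with plain background subtraction, 8 with channels centred on probes detected in all samples, 0 in the authors' table (where limma gave 27 at an unadjusted p under 0.05), 2 once centred and 9 with no filter. The count for D. simulans against the mean of Oregon-R and Zimbabwe-109 was 32, against 19 with plain subtraction, 63 with median centring in place of loess, 20 with quantile normalization, 2 with channels centred on probes detected in all samples, 18 in the authors' table, 57 once centred, 10 with no filter, 120 with the slide as a random block, 18 with only the males of slide 3, 11 with only those of slide 1, and 18 to 34 with 1 sample left out. The causes were not tested. With replicate number as a block the counts were 21 higher and 30 lower; the numbers give no pairing of the sexes here, since same-numbered male and female samples had deviations correlated at 0.14, 0.22, 0.12 and 0.03, and 1 of the 4 males correlated best with its own number. Of 624 list counts, 538 stayed within 1.5 times of the reported one. Probes near background have compressed differences, and the separate slides of the sexes limit every comparison between them.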
